A study of Mus musculus with 2 samples.

Results

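Adipokines and late markers of the adipocyte were followed in primary mouse fibro-adipogenic progenitors (FAPs), the mesenchymal cells of skeletal muscle from which fat can form. Adipoq, Cfd, Retn, Fabp4, Fabp5, Lpl, Cd36, Acsl1, Slc2a4 and Car3 were taken by their gene names, 10 of the 26082 genes listed, because they encode secreted proteins or proteins of fatty acid and glucose uptake in maturing adipocytes. The 2 RNA-seq libraries came from wild-type FAPs given either plasmids that overexpress TGFBR3 (label: TGFBR3 OE) or the vector (label: control), with 1 library per condition. The FAPs were sorted from digested hind limb muscles of young C57BL/6 mice, and both cultures were labelled as under adipogenic differentiation, for which the labels give a DMEM-based medium with insulin (10 μg/ml), dexamethasone (0.25 μM), IBMX (0.5 mM) and FBS (20%). The time of collection, the number of mice behind each library and the share of cells that took up the plasmid are not given in the sources used here. With 1 library per condition there was no replicate check and no test was made, so each value describes these libraries.

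Adipocyte maturation runs from the transcription factors CEBPβ and CEBPδ through PPARγ and CEBPα to a late program of lipid handling and secretion. In that program LPL releases fatty acids from lipoproteins, CD36 carries them across the membrane, ACSL1 activates them with coenzyme A, and FABP4 and FABP5 bind them in the cytosol. GLUT4, encoded by Slc2a4, is the insulin-responsive glucose transporter, and adiponectin (Adipoq), adipsin (Cfd) and resistin (Retn) are secreted.

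Total deposited counts were 62321027 for the library labelled TGFBR3 OE (the OE-labelled library below) and 83779203 for the library labelled control (the control-labelled library). Tgfbr3 itself had 16372 and 21245 counts, in that order of libraries, which made 36.9 and 35.1 FPKM, and its log2 ratio of (FPKM + 1) was 0.07 (95% counting interval 0.04 to 0.10). The median gene was higher by 0.13 on that scale, so the counted Tgfbr3 was not raised in the OE-labelled library, and every direction below is one between labels. The paper measured TGFBR3 after this transfection by RT-PCR, which is not compared here. The insert of the plasmid is not described in the sources used here. Whether its RNA would be counted under the mouse gene was not tested. FPKM is the count divided by gene length and by a library total. Throughout, a positive log2 ratio means a higher value in the OE-labelled library. Ratios of (FPKM + 1) hold down the change of low genes, so the ratio of FPKM without the added 1, taken from the counts, is given beside them as the plain ratio. Its median was 0.15 over the 10626 genes that reached 1 FPKM in both libraries, which is called the median gene below. Counting intervals are exact (Clopper-Pearson, 95%) and cover counting error only, not the difference between cultures. Shares of intervals wholly below or above the median gene are given over the genes above 3 counts in both libraries. These include genes of few counts, whose wide intervals more often include the median gene. The shares may therefore be too low for genes with many counts, and no share at like depth was taken.

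The 10 genes did not differ as 1 group. Adipoq, Cfd and Car3 were at least 2-fold lower in the OE-labelled library on the (FPKM + 1) scale and none of the 10 was 2-fold higher. Of all 26082 genes, 0.475% (124) were that much lower and 1.41% (369) that much higher. After centring on the median gene these counts were 195 and 275. Many of the 26082 are too low to reach 2-fold with the added 1. Of the 11213 genes whose FPKM averaged 1 or more, 116 were 2-fold lower and 352 higher. Of the 10 genes 7 passed that filter, and 2 of those, Adipoq and Cfd, were 2-fold lower. By the plain ratio Slc2a4 joined Adipoq, Cfd and Car3, so 4 of the 10 were 2-fold lower and still none 2-fold higher. Over the 17985 genes above 3 counts in both libraries these shares were 4.22% and 13.4%. All 10 genes were above 3 counts in both. The 5 genes of fatty acid binding, uptake and activation, by contrast, had plain log2 ratios between −0.17 and 0.31. Over the 10 genes the median log2 ratio of (FPKM + 1) was −0.15, beside 0.03 over all genes, and the plain median was −0.46, beside 0.23 over the genes above 3 counts in both libraries.

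**Figure D1:**
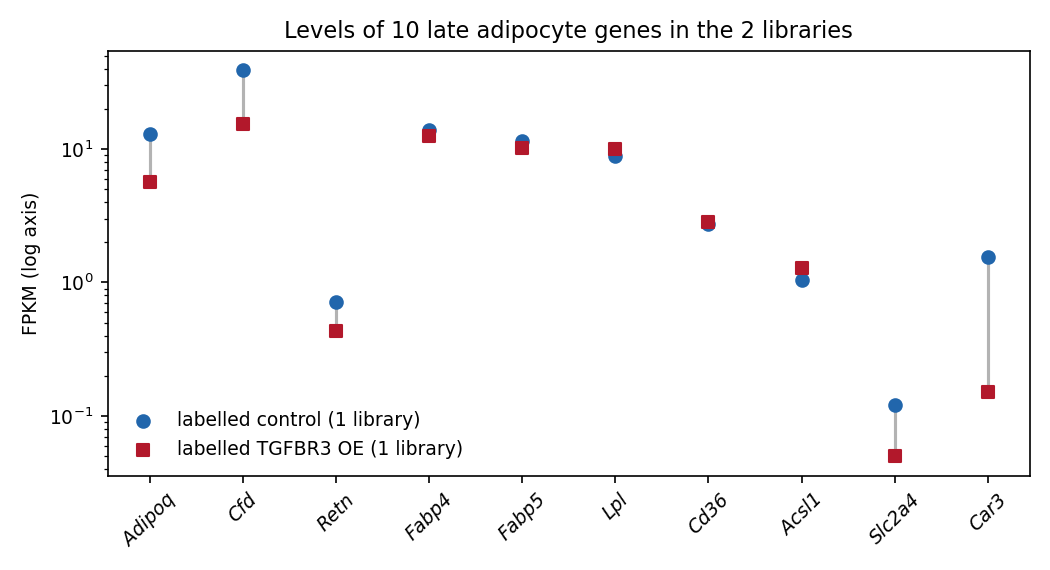
FPKM of the 10 genes on a log axis, with circles for the control-labelled library and squares for the OE-labelled library, 1 library each, joined by a grey line. Long lines mark Adipoq, Cfd, Slc2a4 and Car3, whereas the symbols of Fabp4, Fabp5, Lpl and Cd36 nearly coincide.

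Adipoq (ENSMUSG00000022878, chromosome 16 of mm10, 23146536 to 23158028, plus strand) encodes adiponectin, the hormone that circulates from fat cells and raises insulin sensitivity. It had 534 counts and an FPKM of 5.69 in the OE-labelled library, against 1660 counts and an FPKM of 13.0 in the control-labelled one. The log2 ratio was −1.07 (95% counting interval −1.19 to −0.94) and the plain log2 ratio −1.19 (−1.33 to −1.05), a level 2.28-fold lower. Because the interval with the added 1 crosses −1, the 2-fold call of Adipoq sits at the threshold, and 89 of the 11213 genes whose FPKM averaged 1 or more had a smaller ratio.

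Cfd (ENSMUSG00000061780, chromosome 10, 79890853 to 79892655, plus strand) encodes adipsin, the serine protease that cleaves factor B in the alternative complement pathway. Among the 10 genes it had the highest FPKM in either library, 15.3 from 960 counts in the OE-labelled library and 39.0 from 3327 counts in the other. Its log2 ratio was −1.29 (−1.39 to −1.20), its plain log2 ratio was −1.35 (−1.45 to −1.24), and both intervals lay wholly past 2-fold. The plain intervals of Adipoq and Cfd overlapped, and the FPKM of Cfd was 2.69 times that of Adipoq in the OE-labelled library and 3.00 times in the control-labelled library, so both genes kept nearly the same proportion.

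Retn (ENSMUSG00000012705, chromosome 8, 3655770 to 3660110, plus strand) encodes resistin, which in mice is secreted by fat cells. Its RNA was scarce, with 47 and 107 counts and FPKM values of 0.43 and 0.72. The plain log2 ratio was −0.74 (−1.27 to −0.23), which is lower by direction, but the interval runs from well short of 2-fold to past it. Summed over Adipoq, Cfd and Retn, the counts were 1541 and 5094, and the plain log2 ratio of the sums was −1.28 (−1.36 to −1.20).

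Since Adipoq and Cfd were lower together, the 250 bases before their start sites are shown. Those of Cd36, whose plain log2 ratio was 0.06, are shown for contrast. With the trend over GC content (described below) removed, the plain log2 ratio of Cd36 was −0.55, so Cd36 was then lower too. The windows were read 5′ to 3′ on the strand of each gene from RefSeq on GRCm38.p6 (the mm10 assembly). They lie at chr16:23146286-23146535 (plus strand), chr10:79890603-79890852 (plus strand) and chr5:17835897-17836146 (minus strand). The Cd36 window lies inside that gene as annotated (17781690 to 17888801), so it precedes an internal start site. Which start site of Cd36 these cells used was not tested. Capitals mark matches, on either strand, to CCAAT, to the E-box CANNTG, to the nuclear receptor half-site AGGTCA, to the CEBP-type site TTGCNNAA or to TATAAA.
Adipoq: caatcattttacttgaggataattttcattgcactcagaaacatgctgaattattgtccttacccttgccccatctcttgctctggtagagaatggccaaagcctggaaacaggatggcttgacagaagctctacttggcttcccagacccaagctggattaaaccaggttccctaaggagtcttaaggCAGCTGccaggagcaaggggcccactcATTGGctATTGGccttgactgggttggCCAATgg
Cfd: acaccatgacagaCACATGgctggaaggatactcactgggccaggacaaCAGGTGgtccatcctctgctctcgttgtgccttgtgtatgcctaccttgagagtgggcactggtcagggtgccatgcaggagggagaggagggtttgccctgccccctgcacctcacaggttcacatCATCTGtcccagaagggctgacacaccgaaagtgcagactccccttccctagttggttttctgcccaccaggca
Cd36: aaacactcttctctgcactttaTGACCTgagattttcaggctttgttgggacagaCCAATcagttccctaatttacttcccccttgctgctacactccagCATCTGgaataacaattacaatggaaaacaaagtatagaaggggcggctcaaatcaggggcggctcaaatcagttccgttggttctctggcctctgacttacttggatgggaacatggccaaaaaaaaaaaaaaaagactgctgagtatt

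The Adipoq window held 3 CCAAT matches, beginning 34, 27 and 7 bases before the start site, and 1 E-box at 61 bases. The Cfd window held 3 E-boxes and no CCAAT. The Cd36 window held 1 E-box, 1 CCAAT and 1 half-site, the last at 228 bases. Of 32851 windows of this length, 66.2% held an E-box, 33.8% a CCAAT, 14.0% a half-site, 9.56% a CEBP-type site and 12.4% TATAAA, so a single match of any of these is common. Of these motifs Adipoq and Cfd shared only the E-box. A match describes letters and is not a binding site, and no match says only that these letters are not in this window. The RefSeq table matched 5 of the 10 genes, and neither window of Acsl1 nor that of Retn held a half-site or a CEBP-type site.

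Car3 (ENSMUSG00000027559, chromosome 3, 14863512 to 14872523, plus strand) encodes carbonic anhydrase III, a cytosolic enzyme abundant in fat and in slow muscle. It showed the widest gap of the 10 genes, with 31 counts and an FPKM of 0.15 in the OE-labelled library against 413 counts and an FPKM of 1.55 in the control-labelled library. The plain log2 ratio was −3.29 (−3.87 to −2.76), a level 9.78-fold lower (counting interval 6.79 to 14.6), and its interval overlapped that of no other gene of the 10. On the (FPKM + 1) scale the same counts gave only −1.15 (−1.23 to −1.05). Of the 17985 genes above 3 counts in both libraries, 13 had a smaller plain ratio.

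Other carbonic anhydrases did not share this gap. Of 13 listed, none was 2-fold lower on either scale and 2 were 2-fold higher by the plain ratio (Car12 and the barely detected Car14). The intervals of 3 lay wholly above and 3 wholly below the median gene. Over the genes above 3 counts in both libraries these shares were 38.5% and 31.5%. Of the 13, 4 were at or under 3 counts in at least 1 library. The genes beside Car3 on chromosome 3 behaved differently from it. Car13 (14641727 to 14663002), another cytosolic form, stood at 23.1 against 11.8 FPKM, with a plain log2 ratio of 0.98 (0.90 to 1.05). On the (FPKM + 1) scale Car13 had 0.92, or 0.49 with the GC trend removed. Car2 was near its floor, at 25 and 42 counts, with an interval (−1.08 to 0.44) that includes an equal level. Car11, a catalytically inactive relative, had a plain ratio of −0.55, and Car5b, a mitochondrial enzyme, of −0.36.

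Slc2a4 (ENSMUSG00000018566, chromosome 11, 69942539 to 69948188, minus strand), the gene of GLUT4, was the lowest of the 10 in level, with FPKM values of 0.05 and 0.12. Only 12 and 39 counts stood behind it. The plain log2 ratio was −1.25 (−2.32 to −0.29), so the sign is clear of counting error and the size is not, while the log2 ratio of (FPKM + 1) was −0.09. Slc2a1, the basal glucose transporter GLUT1, stood at FPKM 119 and 105 with a plain log2 ratio of 0.18 (0.16 to 0.21). Of the 9 other glucose transporters none was 2-fold different on either scale. The lowest plain log2 ratio among them was that of Slc2a6 (−0.83), followed by Slc2a10 (−0.41) and Slc2a8 (−0.36).

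**Figure D2:**
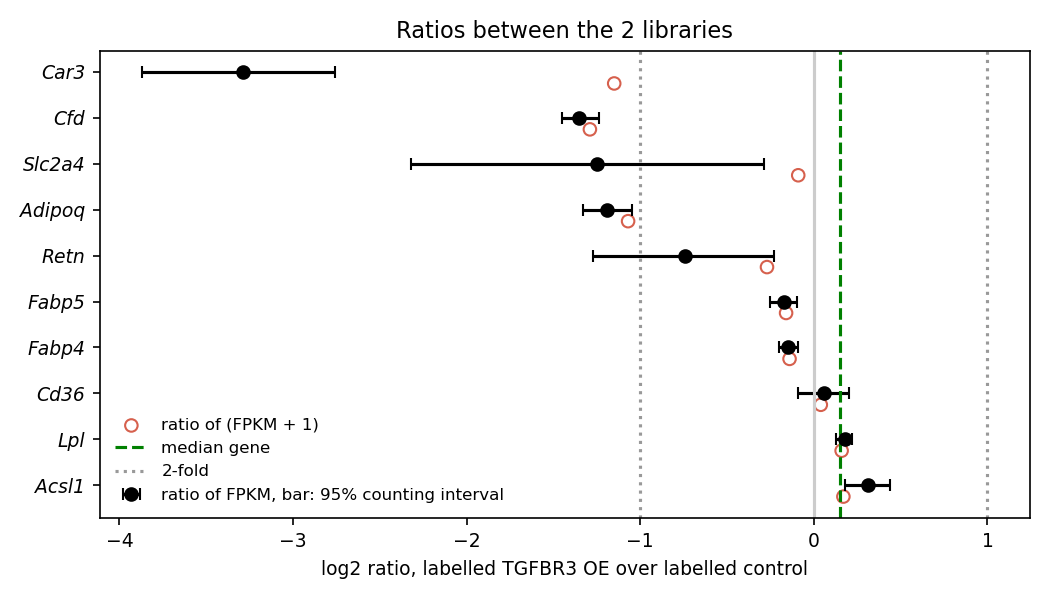
Log2 ratios of the OE-labelled over the control-labelled library (horizontal axis) for the 10 genes, ordered by the plain ratio. Filled points with bars are plain ratios with 95% counting intervals, open circles are ratios of (FPKM + 1), the dashed line is the median gene at 0.15 and dotted lines are 2-fold. Car3 stands apart at −3.29, and the open circles of Car3 and Slc2a4 lie far to the right of their filled points.

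Fabp4 (ENSMUSG00000062515, chromosome 3, 10204088 to 10208576, minus strand) encodes the fatty acid-binding protein of adipocytes, also called aP2. It had 3839 counts at an FPKM of 12.6 in the OE-labelled library and 5783 counts at an FPKM of 13.9 in the control-labelled library. The plain log2 ratio was −0.15 (−0.20 to −0.09), which leaves 90.4% of the control-labelled level. That is a small difference beyond counting error, and whether it exceeds the spread between cultures cannot be told with 1 library each.

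Fabp5 (ENSMUSG00000027533, chromosome 3, 10012548 to 10016607, plus strand) encodes the epidermal fatty acid-binding protein and lies near Fabp4 on the same chromosome. Its 2460 and 3782 counts gave FPKM values of 10.2 and 11.5 and a plain log2 ratio of −0.17 (−0.25 to −0.10). The intervals of Fabp4 and Fabp5 overlapped, and the FPKM of Fabp4 was 1.24 and 1.22 times that of Fabp5 in the OE-labelled and control-labelled libraries. Of the 31-base words of Fabp5, 9.21% also occur in transcripts of other genes, among them Fabp5l2 and several predicted genes, so its count is uncertain where such reads were shared out or dropped. For Fabp4 this share was 0.266%.

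The median gene was higher in the OE-labelled library, and relative to it Fabp4 stood at −0.30 (−0.36 to −0.24) and Fabp5 at −0.33 (−0.40 to −0.26). Both were lower under all 11 alternative scalings, pseudocounts, filters and trend corrections, from −0.52 to −0.14 for Fabp4 and from −0.42 to −0.16 for Fabp5. Among 6 relatives with a related lipid-binding fold, the intervals of 5 lay wholly below the median gene. That held for 31.5% of the genes above 3 counts in both libraries, a share not matched for depth. Crabp1, which binds retinoic acid, had a plain log2 ratio of −0.71 and Fabp3, the heart and muscle form, had −0.11. Fabp7, the brain form, was low, at 12 and 63 counts, with a plain log2 ratio of −1.95.

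Lpl (ENSMUSG00000015568, chromosome 8, 68880491 to 68907448, plus strand) encodes lipoprotein lipase and had the most counts of the 10 genes, 7123 and 8577, at FPKM values of 10.0 and 8.86. Its plain log2 ratio of 0.18 (0.13 to 0.22) was higher by direction, yet relative to the median gene it was 0.02 (−0.02 to 0.07). The log2 ratio of (FPKM + 1) was 0.16, and it turned to −0.04 and −0.08 with TMM factors and DESeq2 size factors, to −0.12 without the trend over GC content and to −0.10 without that over exon length. No direction can therefore be given for Lpl.

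Cd36 (ENSMUSG00000002944, chromosome 5, 17781690 to 17888801, minus strand), which encodes the fatty acid translocase, had 692 and 906 counts and FPKM values of 2.83 and 2.73. Its plain log2 ratio was 0.06 (−0.09 to 0.20), and the interval includes both an equal level and the median gene. At this depth no difference could be detected, although with the GC trend removed the log2 ratio was −0.41, as the exons of Cd36 hold only 38.8% GC.

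Acsl1 (ENSMUSG00000018796, chromosome 8, 46471037 to 46536051, plus strand), the long-chain acyl-CoA synthetase typical of fat cells, had 920 and 1012 counts and FPKM values of 1.29 and 1.04. Its plain log2 ratio was 0.31 (0.18 to 0.44), the highest of the 10 and 0.15 above the median gene (0.02 to 0.28). On the (FPKM + 1) scale it was 0.17, which turned to −0.06 and −0.09 without the trends over GC content and over exon length. An antisense gene, Gm45244, overlaps 1039 bases of its exons, and reads of both are told apart only if the counting used the strand, which is not given in the sources used here. Summed over Lpl, Cd36 and Acsl1, the counts were 8735 and 10495 and the plain log2 ratio 0.18 (0.14 to 0.22).

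**Figure D3:**
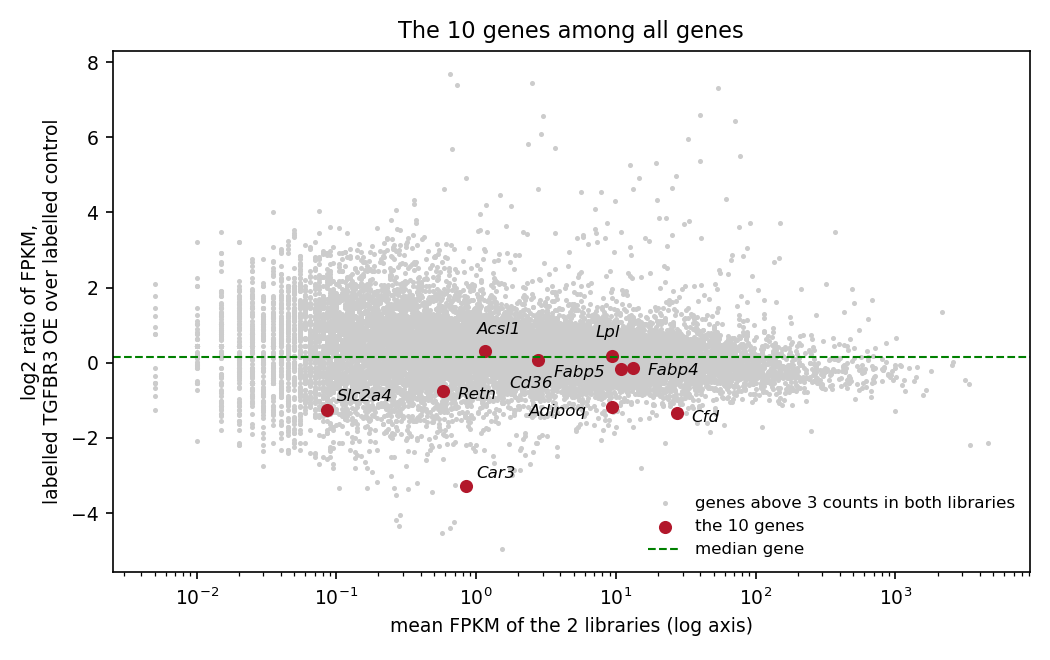
Plain log2 ratio (vertical axis) against mean FPKM (horizontal log axis) for the genes above 3 counts in both libraries in grey and the 10 genes in red, with the median gene as a dashed line. Adipoq, Cfd and Car3 lie at the lower edge of the cloud at their level, whereas Fabp4, Fabp5, Lpl, Cd36 and Acsl1 lie within it.

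In order of the plain ratio the genes ran Car3, Cfd, Slc2a4, Adipoq, Retn, Fabp5, Fabp4, Cd36, Lpl and Acsl1. Apart from the step between Car3 and Cfd, the counting intervals of each pair of neighbors overlapped. Relative to the median gene, the intervals of 7 of the 10 lay wholly below (all but Cd36, Lpl and Acsl1), 1 wholly above (Acsl1) and 2 included it (Lpl and Cd36). Of the 17985 genes above 3 counts in both libraries, 31.5% lay wholly below and 38.5% wholly above by the same rule. These shares are not matched for depth, so they may be too low for the members with many counts.

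Within a library, Adipoq and Cfd thus stood at a different level beside the lipid-handling genes. The FPKM of Adipoq was 0.933 times that of Fabp4 in the control-labelled library and 0.452 times in the OE-labelled library, and that of Cfd was 2.80 and 1.22 times that of Fabp4. Against Lpl, Adipoq stood at 1.47 and 0.568. Ranked among all genes by FPKM, Adipoq was at place 3287 in the control-labelled library and 6282 in the other, and Cfd at 1241 and 3098, while Lpl was at 4394 and 4365.

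How high these genes stand beside each other depends on the length in the FPKM. The deposited FPKM values matched the summed length of all annotated exons, which is 4489 bases for Fabp4, a single block in which no intron is left, from 2 annotated transcripts of which 1 is coding. The longest coding transcript of Fabp4 has 896 bases. With the latter as the length, the level of Fabp4 was 63.1 and 69.8 in the OE-labelled and control-labelled libraries in place of 12.6 and 13.9, and Fabp4 in place of Cfd (15.3 and 39.0) led the 10 genes. Fabp5 (36.7 and 41.5) and Lpl (25.5 and 22.6) also stood higher by this length, and Adipoq (6.09 and 13.9) hardly moved. The length cancels in the plain ratio between the libraries. It does not cancel in the ratio of (FPKM + 1), nor in the proportions between genes given above, which hold for the deposited FPKM only.

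Among the other adipokines, 11 were listed and 1, Nampt, was 2-fold different with the added 1. Nampt (visfatin, an enzyme of NAD synthesis that is also secreted) stood at 21.2 against 7.73 FPKM, with a log2 ratio of 1.35 (1.29 to 1.40), or 0.91 with the GC trend removed. Apln, the peptide apelin, had 0.52, and Metrnl, a secreted factor of fat and muscle, had −0.79. Angptl4, which is both secreted and an inhibitor of LPL, stood at FPKM 84.8 and 109 with −0.36. By the plain ratio Serpina12 (vaspin, 15 and 6 counts) was also 2-fold higher, at 1.77 (0.32 to 3.42). The list therefore held values in both directions. Its median was 0.00, the value of a gene at 0 counts in both libraries, and 0.01 over the 8 genes whose FPKM averaged 1 or more. By the counting interval 4 lay wholly above and 5 wholly below the median gene. Among genes above 3 counts in both libraries 38.5% and 31.5% did so, not matched for depth.

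Genes that act with the secreted members were also spread. Of 5 genes of adiponectin reception and secretion, none was 2-fold different. Erp44, a chaperone that retains adiponectin, had a log2 ratio of (FPKM + 1) of 0.67. Appl1, the adaptor of the adiponectin receptors, had 0.33, and Cdh13 (T-cadherin, which binds adiponectin) had −0.62. With the GC trend removed Erp44 stood at 0.23, Appl1 at −0.10 and Cdh13 at −0.85, so no direction can be given for Appl1. The receptors Adipor1 and Adipor2 stood at 0.04 and −0.03. Of 9 complement genes, 1 was 2-fold different with the added 1. Cfb, which encodes the substrate of adipsin, stood at 158 against 69.0 FPKM, with a log2 ratio of 1.19 (1.16 to 1.21), whereas C3, the source of the C3 convertase, had 101 and 178 and −0.81 (−0.83 to −0.79). Cd55, which restrains that convertase, had −0.33. By the plain ratio Cfp (properdin, 92 and 54 counts, 1.21) and Cd46 (31 and 15 counts, 1.49) were 2-fold higher as well. Cfd was thus lower where the gene of its substrate was higher in the same library.

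Of 12 other genes of fatty acid uptake and activation, none was 2-fold different with the added 1. Cav1 (caveolin 1) had the largest ratio, 0.76, followed by the acyl-CoA synthetases Acsl5 (0.54) and Acsl4 (0.51). With the GC trend removed Cav1 stood at 0.44, Acsl5 at 0.31 and Acsl4 at 0.07. By the counting interval 4 of the 12 lay above and 7 below the median gene. Over the genes above 3 counts in both libraries these shares were 38.5% and 31.5%, not matched for depth. By the plain ratio Slc27a6, a fatty acid transporter with 7 and 48 counts, was 2-fold lower (−2.33). Of 8 partners and relatives of Lpl, Vldlr, a receptor for triglyceride-rich lipoproteins, had 0.67 and Sel1l, needed for LPL to leave the endoplasmic reticulum, −0.32. Gpihbp1, which carries LPL on capillary endothelium, was at 0 counts in both libraries.

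**Figure D4:**
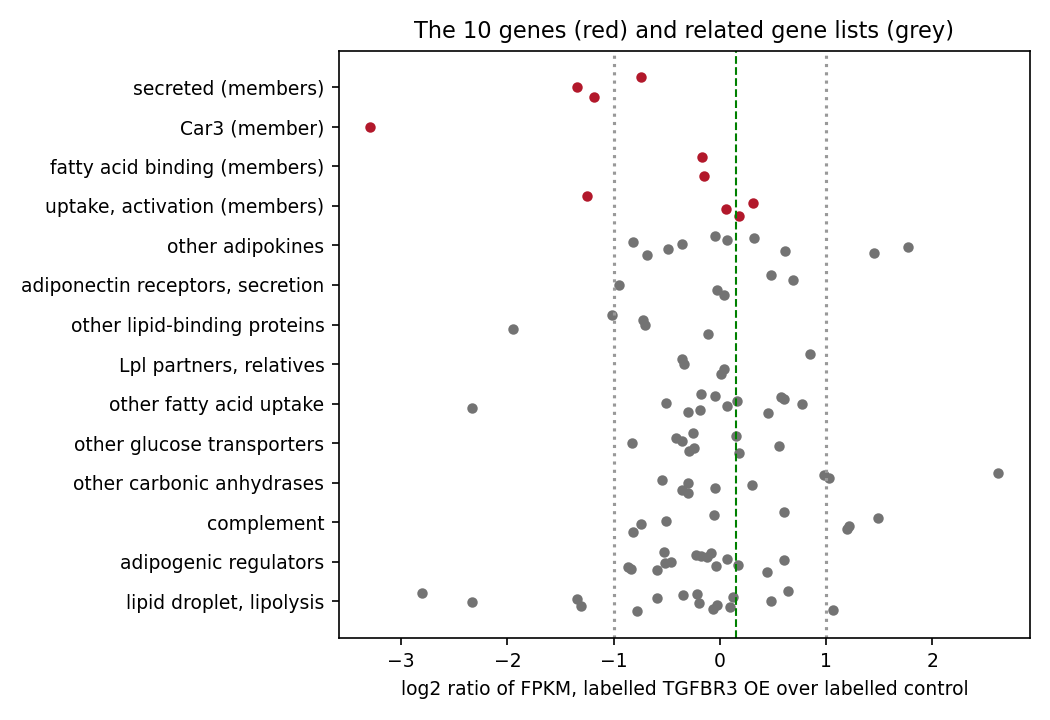
Plain log2 ratios (horizontal axis) of genes above 3 counts in both libraries, 1 point a gene, with the 10 genes in red and 10 lists of related genes in grey. The dashed line is the median gene and dotted lines are 2-fold, and the grey lists scatter on either side of the median gene.

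The regulators of this program were measured in the same libraries. Pparg had 440 and 442 counts, or 2.19 and 1.61 FPKM, with a log2 ratio of (FPKM + 1) of 0.29 (0.16 to 0.42), which was 0.06 with the GC trend removed. Cebpa was lower, at FPKM 10.3 and 15.6, with −0.55 (−0.62 to −0.47). Cebpb and Cebpd, which act early, had −0.83 and −0.86. With the GC trend removed Cebpa stood at −0.30, Cebpb at −0.59 and Cebpd at −0.93. Of the 15 regulators none was 2-fold different, and the median was −0.08. The intervals of 9 lay wholly below the median gene and those of 2 above. Over the genes above 3 counts in both libraries, 31.5% lay wholly below and 38.5% above, shares that are not matched for depth.

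Of 18 genes of the lipid droplet and of lipolysis, 2 were 2-fold lower with the added 1, namely G0s2, an inhibitor of adipose triglyceride lipase (−1.18), and Mgll, which cleaves monoglycerides (−1.08). Plin2, the droplet coat protein found in most cells, was 2-fold higher (1.06, and 0.93 after centring). By the plain ratio 4 were 2-fold lower, since Cidec (63 and 212 counts, −1.31), which fuses droplets, and Aqp7 (8 and 76 counts, −2.80), the glycerol channel of fat cells, joined them. Of the 18, 16 were above 3 counts in both libraries, and 4.22% of all such genes were that much lower. The intervals of 11 lay wholly below the median gene and those of 3 above, where 31.5% and 38.5% of such genes did, not matched for depth. Of 8 further genes linked to progenitors or to the control of adipocyte formation, none was 2-fold different with the added 1. Dlk1, a marker of preadipocytes, had −0.64, Nr2f2 had 0.52 and Tle3 had 0.17. By the plain ratio Dlk1 was 2-fold lower (425 and 1188 counts, −1.04) and Gata3, a factor that holds back adipocyte formation, 2-fold higher (99 and 34 counts, 1.99).

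Other cells of muscle also use some of the 10 genes, as endothelium and macrophages express Cd36 and Fabp4 and muscle fibers express Car3 and Slc2a4. FAP markers were high in both libraries, with FPKM values of 1013 and 706 for Ly6a and of 30.5 and 32.6 for Pdgfra, although Col3a1 (−1.05), Col1a1 (−0.89) and Osr1 (0.58) differed, and Lum was at 45 and 8 counts. The 10 macrophage markers summed to FPKM 3.85 and 2.58, of which Cd68 made up 2.94 and 2.04, and Adgre1, Tyrobp and Fcer1g were at 0 counts in both. The 10 endothelial markers summed to 3.95 and 3.71, led by Egfl7 (1.42 and 1.56), with Tek at 1.04 and 1.09, Pecam1 at 0.05 and 0.01, Kdr at 0.43 and 0.08 and Tie1 at 0 counts in both. Of the muscle markers 6 were listed, summing to 2.49 and 1.51 and led by Des (1.13 and 0.75). Acta1 stood at 0.47 and 0.49 and Tnnt3 at 0.84 and 0.21. Ckm (6 and 0 counts), Myh3 (7 and 0) and Myog (0 and 8) were barely detected. The part of other cells in the 10 genes was not tested. In bulk RNA, fewer cells with the adipocyte program and less RNA of it per cell cannot be told apart.

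Over all genes the log2 ratio ran with GC content: when 11207 genes averaging 1 FPKM or more were put into 20 bins by the GC share of their exons, its median was 0.45 at the lowest GC and −0.25 at the highest. The exons of Cfd hold 58.4% GC and those of Adipoq 47.5%. With the trend removed Cfd stood at −1.16, Adipoq at −1.30 and Car3 at −1.49, all still past 2-fold, and Fabp4 at −0.52.

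**Figure D5:**
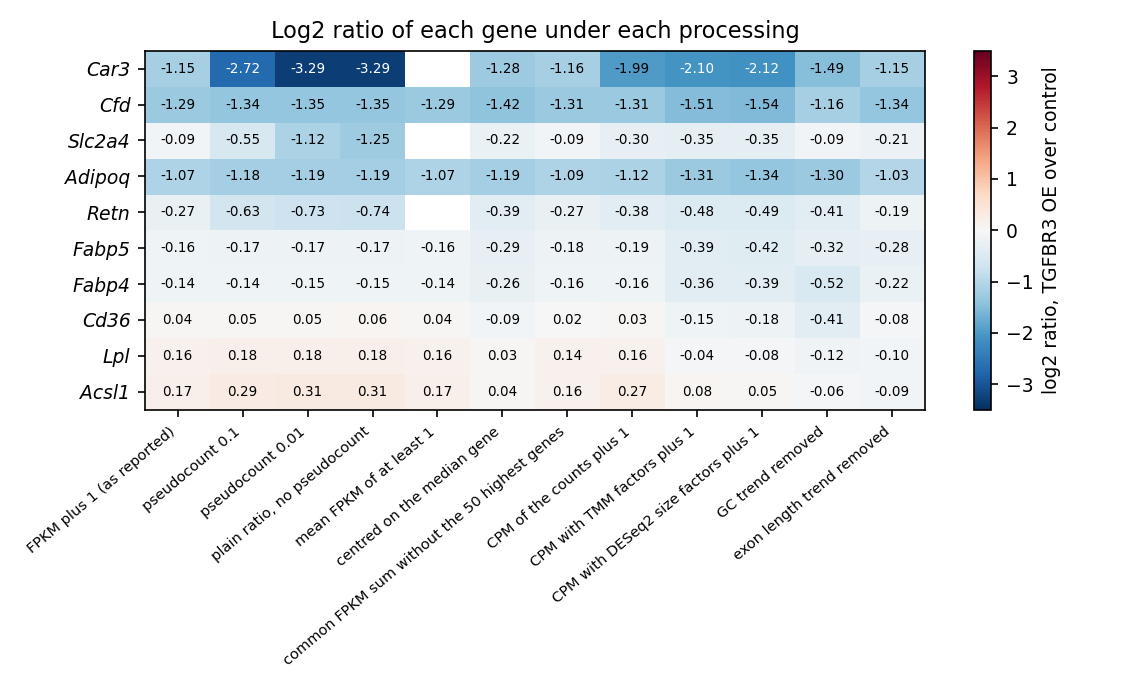
Log2 ratio of each of the 10 genes (rows) under the processing as reported and 11 alternatives (columns), printed in each cell and colored from blue (lower in the OE-labelled library) to red (higher). Cells are blank where a filter left the gene out. The rows from Car3 to Fabp4 are negative throughout, and those of Cd36, Lpl and Acsl1 hold both signs.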

How the data were processed

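RNA of FAPs was sequenced with 1 library per label. The authors deposited, per gene, the raw count and the FPKM rounded to 2 decimals. The study's text names STAR (mm10) and FeatureCounts for alignment and counting, whereas the submitters' processing notes name cutadapt 1.9, HISAT2 2.2.1, StringTie 2.1.6, DESeq2 and edgeR, and which of them made these files is not given in the sources used here. The deposited FPKM could be rebuilt to within 1%, for 98.8% of the 3784 genes at 10 FPKM or more in both libraries, from the count, the exon length of GENCODE release M21 (mm10) and a single total per library, 67856960 (TGFBR3 OE) and 92411802 (control). M21 holds 99.7% of the gene identifiers.

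The measure was the log2 ratio of (FPKM + 1), TGFBR3 OE over control, with a threshold of 2-fold. The plain ratio was taken from the counts and the totals above, over genes above 3 counts in both libraries. Clopper-Pearson intervals at 95% treat reads as independent molecules, so they are too narrow where PCR copies were counted. No test was made, and edgeR 4.0.16 and DESeq2 1.42.0 served only for TMM and size factors (Python 3.11.15, scipy 1.17.1). The calculations were checked on simulated counts. The GC and length trends were removed as medians in 20 bins.

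The 10 genes and the 15 lists of other genes were chosen with earlier results of these data known, and 23 of the 182 genes in all lists were not analysed here. Named genes were the 10, Tgfbr3, Pparg, Cebpa, the up to 3 with the largest ratio of (FPKM + 1) in each list at a mean FPKM of at least 1, and the highest marker of each cell type, and 1 gene that the rule names is not reported here. Others were named after their values were seen: Adipor1, Adipor2, Slc2a1, Car2, Fabp7, Gpihbp1, Cidec, Aqp7, Slc27a6, Serpina12, Cfp, Cd46, Gata3, Car12, Car14, Pdgfra, Lum, Pecam1, Kdr, Acta1, Tnnt3, the markers at 0 counts, and Fabp5l2 and Gm45244, which share sequence with members. The rule on intervals against the median gene and the use of the coding transcript as the length were also chosen after seeing the data.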

Additional observations from a re-analysis of the deposited data

How the results depend on the processing

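The count of members at least 2-fold lower was 3 and ranged from 2 (mean FPKM of at least 1) to 4 (pseudocount 0.01, and the plain ratio), but was 0 at a 4-fold threshold, and no alternative brought a member 2-fold higher. The median log2 ratio of the members, −0.15 as reported, was −0.36 and −0.45 with pseudocounts of 0.1 and 0.01, −0.46 by the plain ratio, −0.27 after centring, −0.24 by CPM, −0.37 with TMM factors, −0.41 with DESeq2 size factors, −0.41 with the GC trend removed and −0.22 with the exon length trend removed. Of the members, 7 were negative under every alternative that gave a value. Lpl reversed with TMM factors (−0.04), DESeq2 size factors (−0.08) and the GC (−0.12) and length (−0.10) trends removed, and Acsl1 reversed with the GC (−0.06) and length (−0.09) trends removed. Cd36 was negative under 5 of 11 alternatives (lowest −0.41), and the cause was not tested for these 3 genes.

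Over all genes, 124 were 2-fold lower and 369 higher. With pseudocounts of 0.1 and 0.01 and by the plain ratio these were 798, 2750 and 759 lower and 2061, 4933 and 2407 higher. By CPM they were 197 and 638. After centring, with TMM factors and with DESeq2 size factors 195, 372 and 409 were lower, against 275, 390 and 368 higher. At 1.5-fold 608 and 1685 passed, and at 4-fold 6 and 77. No paired analysis was possible because each label has 1 library, and for the same reason no library could be left out. Depth limits Slc2a4 (12 and 39 counts) and Retn (47 and 107), whose intervals span 2-fold.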
